A study of Mus musculus with 7 samples.

Results

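The 10 genes described here encode the proteins that end the light response of mouse photoreceptors and set its calcium feedback. They were chosen by name from the 52550 gene rows of the count table. *Grk1* and *Sag* act on rhodopsin, and *Rcvrn* acts on the rhodopsin kinase that *Grk1* encodes. *Rgs9*, *Rgs9bp* and *Gnb5* act on transducin, and *Gucy2e*, *Gucy2f*, *Guca1a* and *Guca1b* make cyclic GMP or control its synthesis. Each symbol matched a single protein-coding row, and all 10 passed the expression filter. Total RNA-seq was done on retinas of 4 wild-type (WT) mice and 3 mice homozygous for a SCA7 knock-in allele (SCA7_KI_homo in the labels, SCA7 retina below). All were C57BL/6J mice of 12.5 weeks, and each library held both retinas of 1 animal. The knock-in allele carries an expanded CAG repeat in the first coding exon of *Atxn7*, the gene mutated in spinocerebellar ataxia type 7, and is driven by the promoter of *Atxn7* itself. The expanded protein is therefore made in every cell type that uses this promoter, not in photoreceptors alone, and both sexes were used.

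In the dark, cyclic GMP holds the channels of the photoreceptor outer segment open. Light activates rhodopsin, which activates transducin and then phosphodiesterase, cyclic GMP falls and the channels close. Recovery needs each step to be reversed: rhodopsin is phosphorylated by the kinase GRK1 and capped by arrestin (*Sag*), the RGS9 complex speeds GTP hydrolysis on transducin, and the fall in calcium releases recoverin from GRK1 and lets the GCAP proteins (*Guca1a*, *Guca1b*) stimulate the retinal guanylate cyclases (*Gucy2e*, *Gucy2f*). Loss of several of these genes prolongs the light response or causes photoreceptor degeneration.

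The bases upstream of some of these genes are shown because the cone-rod homeobox factor CRX and the rod factor NRL are known regulators of rod genes. Of the genes printed here, all but *Rgs9* were downregulated in SCA7 retina. RefSeq (GRCm38.p6) start sites were held for 7 of the 10 genes, namely *Grk1*, *Sag*, *Rgs9*, *Gnb5*, *Gucy2e*, *Gucy2f* and *Guca1a*. The 250 bases before the start are printed for all of these but *Grk1* and *Gnb5*, each written 5′ to 3′ on the gene's strand. Capitals mark the letters TAATCC or the reverse complement GGATTA (core of a CRX site) and TGCTGA or the reverse complement TCAGCA (half-site letters of NRL). *Grk1* was downregulated and its window held neither set of letters, while *Gnb5* was not downregulated and its window held the CRX letters.
*Sag* (chr1:87803430-87803679, + strand): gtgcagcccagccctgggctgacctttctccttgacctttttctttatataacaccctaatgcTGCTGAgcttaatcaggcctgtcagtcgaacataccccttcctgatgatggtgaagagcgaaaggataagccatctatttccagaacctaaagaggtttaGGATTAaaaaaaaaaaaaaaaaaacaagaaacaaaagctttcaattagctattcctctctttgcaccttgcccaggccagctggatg
*Guca1a* (chr17:47400607-47400856, - strand): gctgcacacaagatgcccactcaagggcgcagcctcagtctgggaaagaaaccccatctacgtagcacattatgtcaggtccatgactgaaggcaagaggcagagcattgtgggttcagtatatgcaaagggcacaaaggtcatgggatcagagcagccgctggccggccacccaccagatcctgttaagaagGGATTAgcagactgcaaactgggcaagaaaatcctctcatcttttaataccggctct
*Gucy2e* (chr11:69237023-69237272, - strand): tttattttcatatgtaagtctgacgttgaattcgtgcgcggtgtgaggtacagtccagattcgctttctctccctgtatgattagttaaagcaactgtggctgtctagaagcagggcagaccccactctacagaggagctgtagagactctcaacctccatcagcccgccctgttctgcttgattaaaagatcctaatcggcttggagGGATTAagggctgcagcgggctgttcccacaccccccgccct
*Gucy2f* (chrX:142196937-142197186, - strand): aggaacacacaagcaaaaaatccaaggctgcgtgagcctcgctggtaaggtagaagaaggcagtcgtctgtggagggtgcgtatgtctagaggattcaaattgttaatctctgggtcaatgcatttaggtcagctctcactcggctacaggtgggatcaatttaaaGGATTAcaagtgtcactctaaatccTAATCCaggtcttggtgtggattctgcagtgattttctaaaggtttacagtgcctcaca
*Rgs9* (chr11:109298182-109298431, - strand): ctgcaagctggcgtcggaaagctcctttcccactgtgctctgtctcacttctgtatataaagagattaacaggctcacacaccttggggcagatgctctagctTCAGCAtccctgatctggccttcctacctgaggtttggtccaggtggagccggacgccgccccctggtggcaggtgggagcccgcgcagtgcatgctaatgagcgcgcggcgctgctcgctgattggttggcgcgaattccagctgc

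TAATCC or GGATTA was found in 5 of the 7 windows, those of *Sag*, *Gnb5*, *Gucy2e*, *Gucy2f* and *Guca1a*, against 6.3% of the 32851 promoter windows of the same length in the table. It stood 87 to 82 bases before the start in *Sag*, 57 to 52 in *Guca1a*, 42 to 37 in *Gucy2e* and 6 to 1 in *Gnb5*. These distances are from the RefSeq start, which for *Gucy2e* lies inside the Ensembl gene, so that the last 14 bases of its window belong to that gene. *Gucy2f* held it at 2 places, 84 to 79 and 59 to 54 bases before the start and on opposite strands. TGCTGA or TCAGCA was found in *Sag*, 187 to 182 bases before the start, and in *Rgs9*, 147 to 142 bases before it, against 16.1% of all windows. The 2 sets of letters do not overlap each other, and *Sag* alone among the 7 held both, as did 1.0% of all windows. *Grk1* held neither. These are matches of letters in a window, and binding was not measured in the data used here.

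The libraries held 59902546 to 74733202 counts on genes in WT and 56497675 to 96635832 in SCA7, so that each of the 10 genes had at least 13159 counts in every library and the spread between mice, not counting error, limits the precision. Scaling factors (TMM, which corrects for the make-up of a library) were 0.891 to 0.974 in the WT and 1.07 to 1.09 in the SCA7 libraries, and the 100 genes with the most counts took 32.3% to 36.8% of a WT library and 26.0% to 26.5% of a SCA7 library. WT replicate 3 stood apart, with the lowest TMM factor and the highest share for the 100 leading genes. *Atxn7* had 39.2 ± 4.26 CPM (TMM-normalized counts scaled to library size; WT, SD, n = 4) and 37.6 ± 2.98 CPM (SCA7, SD, n = 3), with no call (log2 fold change -0.06, SE 0.09, adjusted p = 0.64), and since the allele is a repeat expansion its level does not check the labels. Rod markers (*Nrl*, *Nr2e3*, *Prph2*, *Rom1*) marked the tissue as retina: their summed level was 12090 to 12970 CPM in WT and 4093 to 4960 CPM in SCA7, with 4 of 4 downregulated. The 4 cone markers summed to 1008 to 1083 CPM in WT and 81.5 to 96.4 CPM in SCA7, again 4 of 4 downregulated. Among the other lists, 1 of 6 bipolar cell markers was downregulated (the sum went from 653 to 789 CPM in WT to 588 to 636 CPM in SCA7), 3 of 4 reactive glia markers were upregulated (22.4 to 36.5 CPM against 156 to 170 CPM, *Gfap* among them) and 4 of 4 microglia markers were upregulated (16.8 to 21.9 CPM against 41.2 to 45.6 CPM). None of the 4 Müller glia markers was called (3312 to 4169 CPM against 3155 to 3303 CPM). Of the 4 pigment epithelium markers (21.4 to 42.2 CPM against 7.79 to 19.7 CPM), *Rpe65* was downregulated from 21.1 to 4.4 CPM (log2 fold change -2.29, adjusted p = 0.016). The 3 lens crystallins summed to 41.4 to 535 CPM across the WT and 29.1 to 853 CPM across the SCA7 libraries, with none called, and the part of the pigment epithelium and lens levels in the results was not tested. Of the amacrine, horizontal and ganglion cell markers none was called, but most were lower in SCA7. The log2 fold change was negative for 4 of 4 amacrine, 2 of 3 horizontal, 4 of 4 ganglion and 5 of 6 bipolar cell markers. *Calb1* (-0.44, adjusted p = 1.9e-04), *Slc6a9* (-0.41, adjusted p = 0.0013), *Gad1* (-0.37, adjusted p = 0.0044) and *Nefl* (-0.31, adjusted p = 0.013) missed only the FC threshold given below. So did the bipolar cell markers *Vsx1*, *Trpm1* and *Grm6*. Of the 3 endothelial markers *Cdh5* was upregulated (log2 fold change 0.63, adjusted p = 9.6e-04). None of these markers was at 0 in any library. Because whole retina was sequenced, fewer photoreceptors and less RNA per photoreceptor cannot be told apart in the level of any single gene that follows, and the part that the lower rod marker level has in the results was not tested.

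The first question was whether the shutoff and feedback genes differ between the genotypes. Downregulated means an adjusted p below 0.05 (edgeR quasi-likelihood test, Benjamini-Hochberg over the 20128 genes tested) with FC (SCA7/WT) below 0.7, and upregulated the same p with FC above 1.3. Of the 10 genes, 8 were downregulated and 0 were upregulated, where 7.91% of all genes tested were downregulated and 7.47% upregulated. *Gnb5* was just short of the FC threshold and *Rgs9* did not pass the test. In 9 of the 10, every SCA7 library lay below every WT library, as it did for 18.3% of all genes tested. Their median log2 fold change was -0.84, against -0.02 over all genes tested, whose quartiles were -0.26 and 0.17. Together the 10 genes took 1.37 ± 0.0873% of all counts (SD, n = 4) in WT and 0.752 ± 0.0684% (SD, n = 3) in SCA7, a ratio of 0.548. Without WT replicate 3, 9 of the 10 genes were downregulated, with *Gnb5* added. Counted on library totals without TMM factors, which moves the median of all genes to 0.17, 7 of the 10 were downregulated, without *Gucy2e* at -0.50, and the median of the 10 was -0.66.

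**Figure D1:**
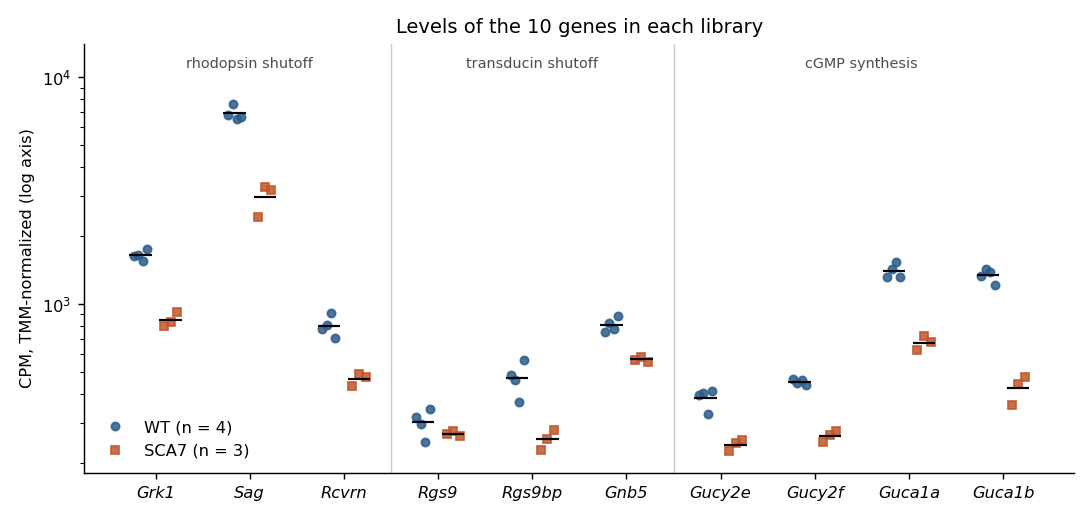
Level of each of the 10 genes in each library, as TMM-normalized CPM on a log axis (circles, 4 WT libraries; squares, 3 SCA7 libraries; black bars, group means). The groups are separate for every gene but *Rgs9*, where the SCA7 values of 263 to 276 CPM lie inside the WT values of 247 to 343 CPM.

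All 3 genes that act on rhodopsin or its kinase were downregulated. *Grk1* (ENSMUSG00000031450, chromosome 8 from 13405081 to 13421951 of mm10, plus strand), the kinase that phosphorylates light-activated rhodopsin, was at 1627, 1638, 1553 and 1751 CPM in the WT libraries and at 802, 831 and 924 CPM in the SCA7 libraries. The SCA7 values were close to each other and far below the lowest WT value. The mean was 1642 in WT (SD 81.7, n = 4) against 852 in SCA7 (SD 63.7, n = 3), or -0.95 as log2 fold change (SE 0.08, adjusted p = 3.9e-06).

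*Sag* (ENSMUSG00000056055, chromosome 1 from 87803680 to 87845158, plus strand) encodes rod arrestin, which binds phosphorylated rhodopsin and blocks its access to transducin. The WT libraries had 6821, 7589, 6563 and 6698 CPM, the SCA7 libraries 2428, 3289 and 3171 CPM. The WT values were tight, whereas SCA7 replicate 1 was well below the other two SCA7 libraries. The mean went from 6918 ± 460 to 2962 ± 467 CPM (log2 fold change -1.22, SE 0.11, adjusted p = 9.5e-06), and the log2 fold change stayed between -1.30 and -1.10 when each library was left out in turn. *Sag* made up 47.6% of the summed CPM of the 10 genes in WT and 42.5% in SCA7.

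*Rcvrn* (ENSMUSG00000020907, chromosome 11 from 67695326 to 67703333, plus strand) encodes recoverin, a calcium sensor that holds GRK1 back while calcium is high. It was at 773, 808, 916 and 708 CPM in the 4 WT and at 433, 489 and 476 CPM in the 3 SCA7 libraries. The highest WT value was that of replicate 3, and the groups did not overlap. The mean went from 801 ± 86.9 to 466 ± 29.4 CPM, or -0.78 as log2 fold change (SE 0.09, adjusted p = 5.9e-05). *Glp2r* overlaps *Rcvrn* on the opposite strand with 63 to 149 counts, where *Rcvrn* had 26647 to 57789.

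Among the 3 subunits that switch off transducin, only the anchor *Rgs9bp* was downregulated. *Rgs9* (ENSMUSG00000020599, chromosome 11 from 109225355 to 109298129, minus strand), the GTPase-activating protein of the complex, was at 316, 296, 247 and 343 CPM in the 4 WT and at 266, 276 and 263 CPM in the 3 SCA7 libraries. The SCA7 values lay inside the WT range, and WT replicate 3 was below all of them. The mean was 300 ± 40.7 CPM against 268 ± 6.63 CPM (log2 fold change -0.16, SE 0.10, adjusted p = 0.23). Without WT replicate 3 the log2 fold change was -0.25 (adjusted p = 0.00718), still short of the FC threshold. On library totals alone it was 0.022 (adjusted p = 0.897).

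*Rgs9bp* (ENSMUSG00000056043, chromosome 7 from 35578993 to 35585582, minus strand) encodes R9AP, which tethers the complex to the outer segment membrane and is needed for the stability of the RGS9 protein. It was at 488, 463, 368 and 565 CPM in the 4 WT and at 228, 253 and 277 CPM in the 3 SCA7 libraries. WT replicate 3 was again the lowest of its group, yet above every SCA7 library. The mean went from 471 ± 81.0 to 253 ± 24.5 CPM, or -0.90 as log2 fold change (SE 0.13, adjusted p = 4.5e-04).

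*Gnb5* (ENSMUSG00000032192, chromosome 9 from 75306288 to 75345876, plus strand) encodes the G beta subunit that is bound to RGS9 and, outside photoreceptors, to other RGS proteins of the same subfamily. It was at 754, 827, 776 and 887 CPM in the 4 WT and at 568, 585 and 556 CPM in the 3 SCA7 libraries. The groups did not overlap. The mean was 811 ± 59.1 CPM against 570 ± 14.5 CPM, with a log2 fold change of -0.51 (SE 0.07, adjusted p = 3.2e-04), and FC was 0.702 against the threshold of 0.7. It was counted as downregulated when WT replicate 1, WT replicate 3 or SCA7 replicate 2 was left out. *Gm48677* and *Gm19531*, antisense to *Gnb5*, had at most 13 and 84 counts, where *Gnb5* had 34951 to 59162.

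All 4 genes of calcium-regulated cyclic GMP synthesis were downregulated. The cyclases *Gucy2e* (ENSMUSG00000020890, chromosome 11 from 69218117 to 69237036, minus strand) and *Gucy2f* (ENSMUSG00000042282, chromosome X from 142081160 to 142196931, minus strand) encode the membrane enzymes that restore cyclic GMP. *Gucy2e* was at 396, 406, 327 and 413 CPM in the 4 WT and at 225, 245 and 250.5 CPM in the 3 SCA7 libraries. *Gucy2f* was at 467, 447, 460.5 and 442 CPM in the 4 WT and at 247, 263 and 276 CPM in the 3 SCA7 libraries. Neither gene overlapped between groups, and the lowest *Gucy2e* value in WT was that of replicate 3, where *Gucy2f* was not low. *Gucy2e* went from 386 ± 39.5 to 240.1 ± 13.3 CPM (log2 fold change -0.68, SE 0.09, adjusted p = 1.1e-04). *Gucy2f* went from 454 ± 11.8 to 262 ± 14.4 CPM (log2 fold change -0.79, SE 0.06, adjusted p = 3.7e-06) and had the smallest coefficient of variation of the 10 genes in WT, 2.6%.

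The activating proteins GCAP1 and GCAP2 are encoded by *Guca1a* (ENSMUSG00000023982, chromosome 17 from 47394558 to 47400584, minus strand) and *Guca1b* (ENSMUSG00000023979, chromosome 17 from 47385393 to 47392967, plus strand). The genes run towards each other with 1590 bases between their ends. *Guca1a* was at 1315, 1433, 1533 and 1317 CPM in the 4 WT and at 628, 724 and 677 CPM in the 3 SCA7 libraries. *Guca1b* was at 1330.0, 1430.2, 1384 and 1211 CPM in the 4 WT and at 357, 443 and 477 CPM in the 3 SCA7 libraries. In WT the neighbours had nearly the same count level, whereas in every SCA7 library *Guca1b* was the lower. *Guca1a* went from 1399 ± 104 to 676 ± 48.0 CPM (log2 fold change -1.05, SE 0.08, adjusted p = 3.0e-06). *Guca1b* went from 1339 ± 94.4 to 426 ± 61.9 CPM, or -1.65 as log2 fold change (SE 0.10, adjusted p = 5.0e-07) and the lowest among the 10 genes. Its share of the summed CPM of the 10 genes was 9.22% in WT and 6.10% in SCA7.

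The next question was whether the genes changed by different amounts. For this the log2 ratio of the counts of 2 genes was taken within each library (0.5 added to each count), so that library scaling and gene length drop out, and was compared by an exact two-sided permutation test over all 35 assignments of the libraries to the genotypes, whose smallest possible p is 0.0286. Of the 45 pairs, 21 had this smallest p. None passed adjustment over the 45 pairs, where the lowest adjusted p was 0.0612, while a limma fit to the same ratios called 30. Pairs share genes, so these counts are not independent. *Guca1b* was in 8 and *Rgs9* in 7 of the 21, out of the 9 pairs each gene belongs to, and *Rgs9bp* was in 1. The widest difference was that of *Rgs9* to *Guca1b*, whose log2 ratio was 1.51 higher in SCA7 than in WT.

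The ratio of *Guca1a* to *Guca1b* was -0.02, 0.00, 0.15 and 0.12 on the log2 scale in WT and 0.81, 0.71 and 0.50 in SCA7. The groups were apart, with means of 0.06 ± 0.08 (SD, n = 4) and 0.68 ± 0.16 (SD, n = 3), and the ratio was 1.53-fold higher in SCA7 (exact permutation p = 0.0286, adjusted p = 0.0612). For the cyclases, *Gucy2e* to *Gucy2f* was -0.24, -0.14, -0.49 and -0.10 in WT and -0.14, -0.11 and -0.14 in SCA7. The SCA7 ratios lay inside the WT range, and the difference of 0.11 had an exact permutation p of 0.371.

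The ratio of *Rgs9* to its anchor *Rgs9bp* was -0.62, -0.65, -0.58 and -0.72 in WT and 0.22, 0.12 and -0.08 in SCA7. It held within an SD of 0.06 in WT although both genes were low in replicate 3, and its mean went from -0.64 to 0.09, a 1.66-fold higher ratio in SCA7 (exact permutation p = 0.0286, adjusted p = 0.0612). The ratio of *Rgs9* to *Gnb5* was -1.25, -1.48, -1.65 and -1.37 in WT and -1.09, -1.09 and -1.08 in SCA7. The SCA7 libraries were above all WT libraries, and the difference of 0.35 had an exact permutation p of 0.0571. *Grk1* to *Sag* differed by 0.29 (exact permutation p = 0.0857) and *Grk1* to *Rcvrn* by -0.17 (exact permutation p = 0.314). The limma fit called *Rgs9* to *Gnb5* and *Grk1* to *Sag* but not *Grk1* to *Rcvrn*.

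**Figure D2:**
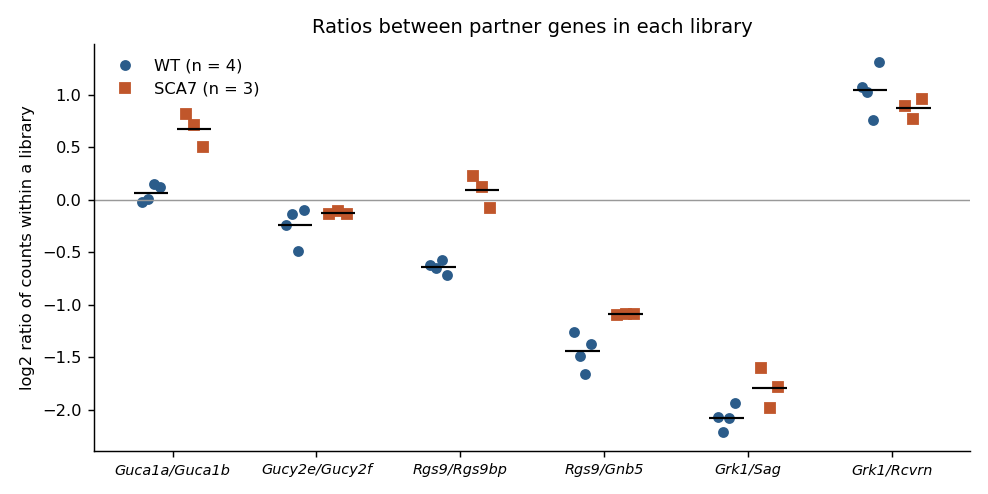
Log2 ratio of the counts of partner genes within each library (circles, 4 WT libraries; squares, 3 SCA7 libraries; bars, group means). *Guca1a*/*Guca1b* and *Rgs9*/*Rgs9bp* are higher in all SCA7 libraries than in any WT library, with means of 0.68 against 0.06 and 0.09 against -0.64, while *Gucy2e*/*Gucy2f* overlaps.

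The shutoff genes were then set against the activation cascade of the same libraries. *Gnat1*, the rod transducin alpha subunit, went from 10218 ± 360 to 3016 ± 474 CPM (log2 fold change -1.76, adjusted p = 5.1e-07), and *Pde6b*, a catalytic subunit of the phosphodiesterase, went from 3176 ± 186 to 1411 ± 121 CPM (-1.17, adjusted p = 1.8e-06). Of the 20 ratios of the 10 genes to these 2, 14 differed between genotypes at the smallest exact permutation p of 0.0286 (adjusted p = 0.0357 over a family of 30 ratios), and in 13 of the 14 the shutoff gene was higher relative to the activation gene in SCA7. This direction depends on the activation gene: *Pde6a*, to which no ratio was taken, had a log2 fold change of -0.67, and those of all of the 10 genes but *Rgs9* and *Gnb5* were lower.

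Relative to *Gnat1*, 9 of the 10 genes were higher in SCA7, from 0.54 for *Sag* to 1.62 for *Rgs9*, with a median over the 10 of 0.93. *Rgs9* to *Gnat1* was -4.99, -5.12, -5.32 and -4.96 in WT and -3.23, -3.49 and -3.71 in SCA7, a 3.07-fold higher ratio. *Sag* to *Gnat1* was -0.56, -0.44, -0.59 and -0.67 in WT and -0.04, 0.08 and -0.12 in SCA7, a 1.45-fold higher ratio. In both cases every SCA7 library was above every WT library. The exception was *Guca1b*, with log2 ratios of -2.92, -2.85, -2.83 and -3.14 in WT and -2.81, -2.81 and -2.85 in SCA7. The lowest SCA7 value lay inside the WT range, and the difference of 0.11 had an exact permutation p of 0.229.

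Relative to *Pde6b*, 5 of the 10 differed. *Rgs9* (1.02), *Gnb5* (0.67), *Gucy2e* (0.49) and *Gucy2f* (0.38) were higher in SCA7, and *Guca1b* was lower by a log2 difference of -0.49, with ratios of -1.28, -1.25, -1.09 and -1.37 in WT and -1.83, -1.76 and -1.61 in SCA7. *Sag* to *Pde6b* was 1.08, 1.16, 1.15 and 1.10 in WT and 0.93, 1.13 and 1.12 in SCA7, so that 2 of the 3 SCA7 libraries lay inside the WT range. The difference of -0.06 had an exact permutation p of 0.4. *Rcvrn* (0.40), *Rgs9bp* (0.29), *Grk1* (0.22) and *Guca1a* (0.12) had exact permutation p values between 0.0571 and 0.2. The limma fit called 7 of the 10 ratios to *Pde6b*, adding *Rcvrn* and *Rgs9bp*, and 9 of the 10 to *Gnat1*. It gave all of these ratios the same standard error, 0.112, so its calls do not rest on the spread of each ratio. *Rgs9bp* to *Pde6b*, with an SD of 0.23 in WT, had an exact permutation p of 0.143.

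**Figure D3:**
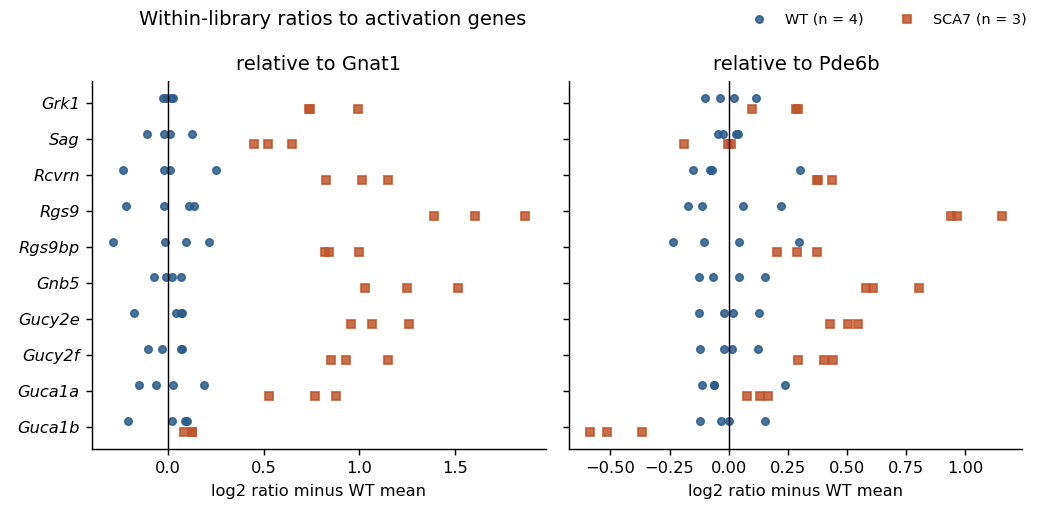
Log2 ratio of each of the 10 genes to *Gnat1* and *Pde6b* within each library, minus the mean of the 4 WT libraries (circles, WT; squares, 3 SCA7 libraries). For *Gnat1* all SCA7 points of 9 genes lie right of the WT points of the same gene, and 1 of the 3 of *Guca1b* lies among them, and for *Pde6b* the shifts go from -0.49 for *Guca1b* to 1.02 for *Rgs9*.

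The rest of the pathway was described by lists of 53 further genes, of which 23 were downregulated and 2 upregulated, with a median log2 fold change of -0.32. The 6 rod activation genes were all downregulated, from *Gnat1* at -1.76 to *Pde6a*, the other catalytic phosphodiesterase subunit, at -0.67 (median -1.14). The 6 channel and exchanger genes had a median of -0.75, and 5 were downregulated. The rod channel subunits *Cnga1* and *Cngb1* were at -0.99 and -0.63, and the rod exchanger *Slc24a1*, which removes the calcium that the feedback proteins sense, at -0.67. The related exchanger gene *Slc24a2* was at 0.36 (adjusted p = 4.7e-03) and below the FC threshold for upregulation.

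Among the 8 cone counterparts, 7 were downregulated and *Gnb3*, the beta subunit of cone and ON bipolar cell G proteins, was upregulated (log2 fold change 1.06, adjusted p = 5.5e-07). *Arr3*, the cone arrestin, went from 180 ± 20.4 to 19.9 ± 4.56 CPM (log2 fold change -3.17, SE 0.17, adjusted p = 2.5e-06), beside -1.22 for the rod arrestin *Sag*. The SCA7 libraries held 11.1% of the WT level of *Arr3* and 42.8% of that of *Sag*.

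Of 9 accessory genes, 4 were downregulated (median of the list -0.34). These were *Unc119* (-1.13), which carries lipidated transducin alpha, *Pdc* (-1.01), the transducin-binding phosducin, *Ppef2* (-0.97), a calcium-dependent phosphatase of photoreceptors, and *Impdh1* (-0.85), the rate-limiting enzyme of guanine nucleotide synthesis. *Rd3*, which inhibits and transports the retinal guanylate cyclases, had a mean of 254 ± 24.0 CPM against 219 ± 13.9 CPM (log2 fold change -0.22, SE 0.08, adjusted p = 0.064), beside -0.68 and -0.79 for the cyclases themselves. *Aipl1*, the chaperone of the phosphodiesterase, was at -0.17 (adjusted p = 0.091) and *Guk1*, the guanylate kinase that recycles GMP, at -0.34 (adjusted p = 0.019, short of the FC threshold).

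The 24 paralogs of the shutoff genes, most of which are used outside photoreceptors, had a median log2 fold change of 0.02, with 1 downregulated and 1 upregulated. Of all genes tested, 7.91% were downregulated and 7.47% upregulated. *Grk4* was downregulated from 8.19 ± 0.928 to 5.08 ± 0.399 CPM (-0.69, adjusted p = 6.1e-04), and *Gnb2* was upregulated from 100.4 ± 3.73 to 174 ± 7.45 CPM (0.79, adjusted p = 1.9e-06). *Rgs7* and *Rgs11*, the RGS proteins that pair with G beta 5 in ON bipolar cells, were at -0.32 (adjusted p = 2.9e-03, short of the FC threshold) and -0.17 (adjusted p = 0.15). *Arrb1* and *Arrb2*, the widely used arrestins, were at 0.09 and -0.08 with overlapping groups. The soluble guanylate cyclase genes *Gucy1a1* and *Gucy1b1* were at 0.01 and 0.02, and *Gucy1a2* was at -0.46 (adjusted p = 0.01, short of the call at FC below 0.7), with every SCA7 library below every WT library.

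**Figure D4:**
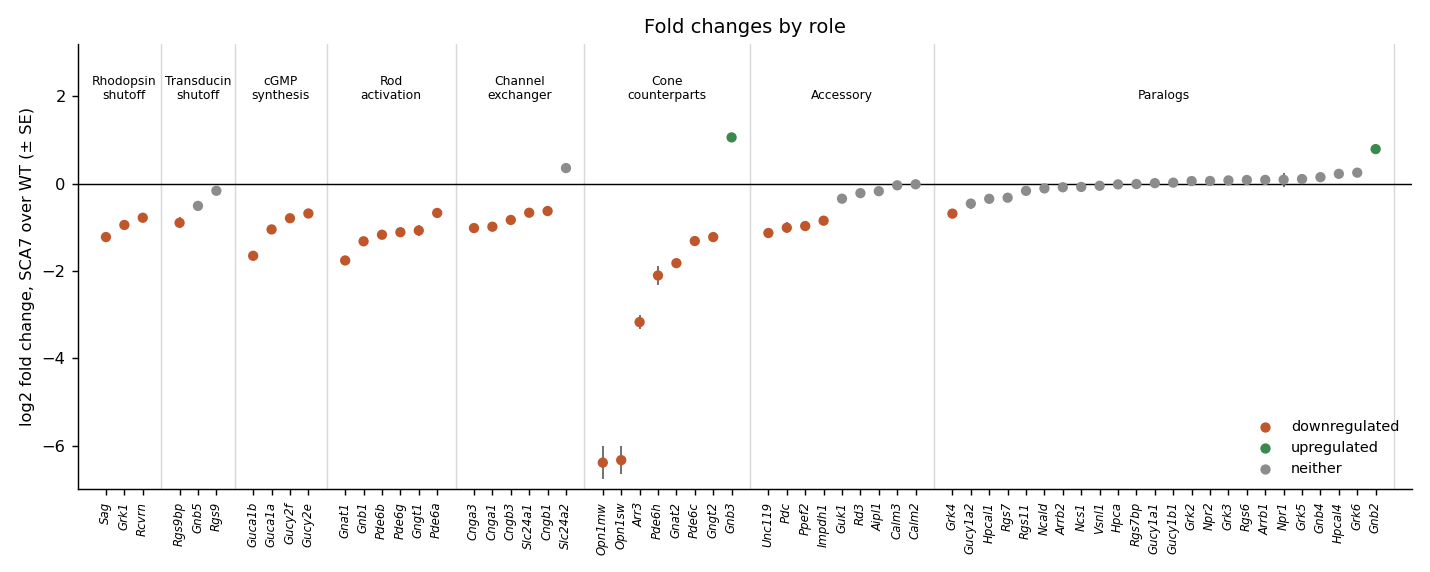
Log2 fold change (SCA7 over WT) with its SE for the 10 genes and 53 other pathway genes, grouped by role and sorted within each group (orange, downregulated; green, upregulated; grey, neither). The 6 rod activation genes lie between -1.76 and -0.67, and 22 of the 24 paralogs are grey.

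To compare levels between genes, counts were divided by DESeq2 size factors and by kb of the gene's median transcript (RPK). In WT retina *Sag* had the highest level at 287550 ± 19500 RPK (SD, n = 4), place 10 among the 20083 genes ranked, followed by *Guca1a* at 111120 ± 8037 RPK. *Gnb5* (63359 ± 4535 RPK), *Guca1b* (57578 ± 4078 RPK) and *Rcvrn* (53407 ± 5697 RPK) came next, and the ranges of *Gnb5* and *Guca1b*, and of *Guca1b* and *Rcvrn*, overlapped over the 4 libraries. *Grk1* was at 15335 ± 768 RPK and *Rgs9* at 9008 ± 1232 RPK. The 3 lowest were *Gucy2e* (6636 ± 690.5 RPK), *Rgs9bp* (4955 ± 857 RPK) and *Gucy2f* (3877 ± 107 RPK), of which *Gucy2e* overlapped *Rgs9bp* and *Rgs9bp* overlapped *Gucy2f*. The order rests on the length used: with the longest transcript in place of the median, *Guca1a* was first and *Sag*, with 101470 RPK, was second. *Gnb5* was then at place 5 with 26713 RPK, below *Guca1b* and *Rcvrn*. *Gucy2e* was last with 3210 RPK, below *Rgs9bp* and *Gucy2f*.

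With the median transcript length, the order changed at 2 places in SCA7 retina. *Rcvrn*, at 31145 ± 1901 RPK (SD, n = 3), was above *Guca1b*, at 18346 ± 2660 RPK, in every SCA7 library, with a ratio of *Guca1b* to *Rcvrn* between 0.532 and 0.646 where it was between 0.974 and 1.14 in WT. *Rgs9* (8060 ± 171 RPK) and *Grk1* (7974 ± 608 RPK) were no longer separate, with a ratio of *Grk1* to *Rgs9* between 0.937 and 1.09 in SCA7 and between 1.59 and 1.96 in WT. With the longest transcript, *Grk1* (7967 RPK) stayed above *Rgs9* (5382 RPK) in SCA7. By the same length *Guca1b* was at place 3 in WT (55645 ± 3941 RPK), close to *Rcvrn* (53407 ± 5697 RPK). In SCA7 its mean of 17730 ± 2571 RPK was below that of *Rcvrn*, and not separate from that of *Gnb5* (18806 ± 416 RPK). Among all ranked genes, with the median length, *Guca1b* went from place 67 to place 395 and *Grk1* from 532 to 1294, whereas *Sag* went from 10 to 19 and *Rgs9* from 1130 to 1271.

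**Figure D5:**
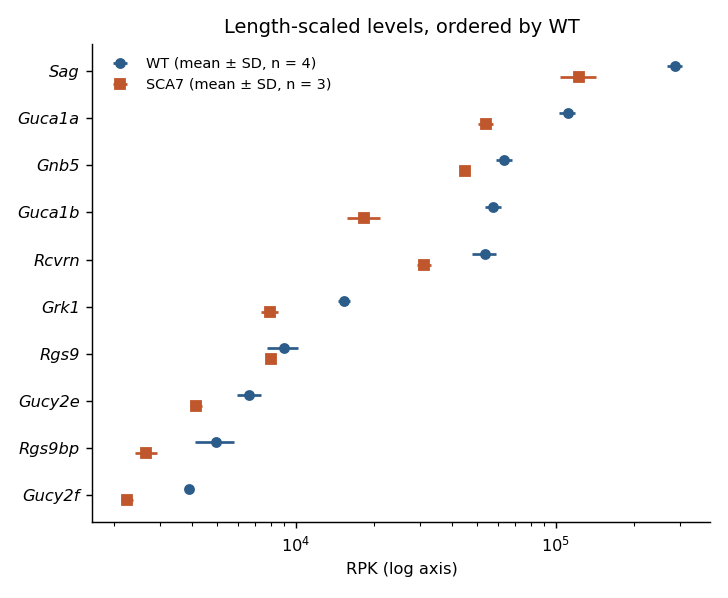
Length-scaled level of each gene (RPK, log axis) in WT (circles, mean ± SD over 4 libraries) and SCA7 (squares, mean ± SD over 3 libraries), ordered by WT. *Sag* is highest in both genotypes at 287550 and 123370 RPK, and the *Rgs9* markers nearly meet at 9008 and 8060 RPK.

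The 10 genes differed in how their libraries varied. In WT, replicate 3 deviated from its group mean by -0.27 on the log2 scale for *Rgs9*, -0.34 for *Rgs9bp* and -0.23 for *Gucy2e*, but by 0.20 for *Rcvrn* and 0.13 for *Guca1a*. In SCA7, replicate 1 deviated by -0.27 for *Sag* and -0.24 for *Guca1b*, and by -0.01 for *Rgs9*. Across the 7 libraries, *Gucy2f* (root mean square difference of centred log2 CPM 0.0437) and *Grk1* (0.0643) followed the median profile of the 10 genes most closely, and *Rgs9* (0.371) and *Guca1b* (0.412) least. By the same measure over 14710 other genes (mean CPM of 1 or more), the most alike were *Hspb6* (0.0171), a small heat shock protein gene that went from 42.5 ± 0.834 to 23.6 ± 1.23 CPM, and *Xiap* (0.0201), an inhibitor of apoptosis gene that went from 558 ± 4.34 to 315.0 ± 25 CPM. *Gm16262* (0.0475, an antisense RNA gene), *Itsn2* (0.0479) and *Hnrnph3* (0.0519) followed. This likeness is over 7 libraries in which the genotype is the main difference, and it says nothing of shared control.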

How the data were processed

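Total RNA was sequenced from 7 mouse retina samples, 4 WT and 3 SCA7_KI_homo, grouped by the genotype labels. The authors prepared stranded libraries after removal of ribosomal RNA, mapped the reads to mm10 (TopHat2 2.0.14 and Bowtie2 2.1.0, per the submitters' processing notes), counted them per Ensembl gene with HTSeq 0.6.1 and deposited raw counts for 52550 genes, without normalization. The strand option and mode of HTSeq are not given in the sources used here, so reads of a gene and an antisense partner may be mixed. Symbols, positions and transcript lengths came from GENCODE M21 (GRCm38), which covered 52403 of the rows.

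Genes were filtered with filterByExpr (20128 kept), scaled by TMM and compared by the quasi-likelihood test (glmQLFit with robust estimation, glmQLFTest) of edgeR 4.0.16 in R 4.3.3, with p values adjusted by Benjamini-Hochberg. Within-library ratios were compared by exact two-sided permutation tests. The alternatives were DESeq2 size factors, library totals alone, the DESeq2 1.42.0 Wald test, limma-voom (limma 3.58.1), 2 other filters (1 count in any library, 10 in each), a replicate block, *Xist* as a covariate, each library left out, other thresholds, 5 counts added to ratios, and other transcript lengths. Added after seeing the data were TMM factors from genes outside the pathway and photoreceptor lists and a correction for GC content and length. The fits were tested on simulated data.

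All 10 genes are named, with genes of the pathway and marker lists, *Atxn7*, and the 5 most alike genes by root mean square difference. The members and lists were chosen with earlier results of these data known. Of the genes on the lists, 2 are not reported here, and their values are left out of the counts and ratios given for the lists, while the adjustment covers all 30 ratios to activation genes. Protein sequences were not used here. Each sample was 1 mouse, so the p values cover the spread between mice. The limma fits of the ratios pooled that spread, in part or in full, over ratios that share libraries and genes.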

Additional observations from a re-analysis of the deposited data

How the results depend on the processing

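Every fold change of the 10 genes other than *Rgs9* kept its direction and its side of an adjusted p of 0.05 under all 17 alternatives, and 8 of the 10 genes were downregulated in most of them, 7 on library totals alone and 9 without the FC threshold. *Rgs9* reversed on library totals alone (log2 fold change 0.022, adjusted p = 0.897) and passed the test without WT replicate 3 (-0.25, adjusted p = 0.00718). Library totals alone gave 978 downregulated and 3681 upregulated genes in all, with 5 upregulated among the other pathway genes, against 1592, 1504 and 2 with TMM, and shifted the median of all genes from -0.02 to 0.17. Dropping the FC threshold gave 2852, 2853 and 5. Leaving out each library gave 8 to 9 of the 10 genes. The pair ratios that differ numbered 0 by the exact test, which cannot go below p = 0.0286 at this size, and 30 by limma, 32 by limma with the replicate block and 24 to 34 by limma with each library left out. The median WT level over the 10 genes was 34370 RPK with the median transcript length, 15510 with the union of exons and 21020 with the longest transcript. Replicate numbers are shared between genotypes. Deviations of same-numbered libraries correlated across 14720 genes at 0.098, 0.382 and 0.163, against -0.383 to 0.195 for the 9 pairs of libraries with different numbers. SCA7 replicates 1 and 3 correlated best with WT replicate 4 (0.139 and 0.195), which has no SCA7 library of its number. Among WT replicates 1 to 3, each SCA7 library correlated best with its own number. Animal numbers in the sample titles are also close for same-numbered mice. The labels name no litter, batch or day that a number shares, so the main fit left the mice unpaired. Pairing is not excluded. With the replicate block 8 of the 10 genes were downregulated, 1706 and 1629 genes were called in all, and no call on the 10 genes changed. With 4 and 3 mice, the spread between mice and not the depth sets the precision of all values on the 10 genes.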
